A study of Mus musculus with 12 samples.

Results

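The genes described here are 10 genes of iron sensing, hepcidin and BMP signalling in mouse liver: *Hamp*, *Hamp2*, *Hfe*, *Tfr2*, *Tfrc*, *Trf*, *Slc40a1*, *Bmp6*, *Id1* and *Smad7*. They were chosen by name, for their known place in the control of hepcidin, out of 41743 genes in the table. The choice was made with earlier results of these data known. Whole livers of 12 females, 3 to 4 months old and in 4 groups of 3 mice, were used for RNA-seq. YAP1 KO mice had lost both copies of *Yap1* through *Foxa3*-Cre, which acts in the foregut endoderm early in development, and also carried a *ROSA*-stop fl/fl-EYFP reporter; they were compared with WT (C57BL/6) littermates. YKTH mice (YAP1 KO TAZ heterozygote) had in addition lost 1 copy of *Wwtr1*, which encodes TAZ, and were compared with WT (mixed) littermates on a mixed C57BL/6-FVB background. The Cre is not limited to hepatocytes. The loss of 1 *Wwtr1* copy cannot be told apart from the genetic background, the set of animals and the *Yap1* RNA that remained, which was higher in YKTH than in YAP1 KO livers.

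Hepcidin, the product of *Hamp*, is a peptide hormone that hepatocytes release into the blood. It binds the iron exporter ferroportin, the product of *Slc40a1*, and has it degraded, so that less iron leaves macrophages and the gut. BMP6 from the liver endothelium acts on hepatocyte BMP receptors and hemojuvelin, and SMAD proteins then raise *Hamp* together with *Id1* and the feedback inhibitor *Smad7*. HFE and transferrin receptor 2 take part in sensing iron-loaded transferrin, while transferrin receptor 1, encoded by *Tfrc*, brings it into cells. Mice carry a second hepcidin gene, *Hamp2*, beside *Hamp*, and it is not known as an iron-regulatory hormone in the way that *Hamp* is.

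*Hamp* (ENSMUSG00000050440, chromosome 7 of GRCm38 from 30942368 to 30944032, minus strand) and *Hamp2* (ENSMUSG00000056978, chromosome 7 from 30922372 to 30924681, minus strand) lie on the same strand with 17687 bases between the end coordinate of *Hamp2* and the start coordinate of *Hamp*. Their promoters are shown because these neighbouring, closely related genes differed widely in the size of their changes. RefSeq promoter windows, which hold 250 bases before and 50 after each start in GRCm38.p6, were 91.1% identical over 303 aligned columns. Below are bases 150 to 31 before each RefSeq start, on the strand of the gene. The *Hamp* stretch lies outside the *Hamp* span given above. The *Hamp2* stretch lies inside the *Hamp2* span, which begins at 30924681 on the minus strand, so for *Hamp2* the RefSeq start is not that of the span. The 2 stretches are therefore alike only with regard to the RefSeq starts. Capitals mark a GGCGCC stretch, the letters of the BMP response element of hepcidin promoters, and a TTCNNNGAA stretch, the letters of a STAT site, together with the bases aligned to them in *Hamp2*.
Hamp, chr7:30944060-30944179, minus strand: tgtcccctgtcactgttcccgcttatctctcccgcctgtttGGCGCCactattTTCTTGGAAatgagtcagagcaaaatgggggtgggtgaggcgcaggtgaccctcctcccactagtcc
Hamp2, chr7:30924212-30924331, minus strand: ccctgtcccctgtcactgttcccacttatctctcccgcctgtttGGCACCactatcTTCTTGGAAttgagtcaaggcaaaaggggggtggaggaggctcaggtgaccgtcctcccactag

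The *Hamp* window had GGCGCC from base 109 before its start. The aligned *Hamp2* bases carried the substitution G4A, with *Hamp* given first and positions counted from 1 at the 5′ end of the motif, so GGCGCC was not in the *Hamp2* window. The TTCNNNGAA letters were the same in both genes, from base 97 before the start of *Hamp* and base 94 before that of *Hamp2*. Among 27025 RefSeq promoter windows of the same length, 1 per gene, 11.96% held GGCGCC and 8.47% held TTCNNNGAA on either strand. For the genes described here every window was searched, so these shares are not a like comparison for a gene with more than 1 window. Windows were found for 6 of the 10 genes, *Bmp6*, *Hfe*, *Tfr2* and *Tfrc* being the others. Of these, 1 *Tfrc* window held GGCGCC and none held TTCNNNGAA. CATTCC, the letters of a TEAD site and present in 14.6% of the 27025 windows, was on the minus strand of 1 of 3 *Tfr2* windows, at bases 152 and 101 before the start. It was in no window of *Hamp*, *Hamp2*, *Bmp6*, *Hfe* or *Tfrc*. TGACNNNGC, the letters of an antioxidant response element and present in 12.5% of the 27025 windows, was in the *Bmp6* and *Hfe* windows. These matches describe letters only, and no binding was measured.

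Every value is in TPM (transcripts per 1000000), which the authors scaled for gene length and library total, so levels can be set beside each other between genes but the number of reads counted in each library cannot be read from them. Between 14442 and 15047 genes were above 0 TPM in a library. For the tests, TPM values were scaled by a trimmed mean of log ratios between libraries, 1 was added, and log2 values were fitted with limma; a change past the test has an adjusted p under 0.05 after Benjamini-Hochberg adjustment over all tested genes, and fold changes on this scale understate the change of genes near 1 TPM. Without the scaling the median log2 fold change over all genes was 0.28 in place of -0.04 in YAP1 KO mice, and the share of higher genes among those called was 84% instead of 51.3%. In YKTH mice the median was 0.24 instead of -0.04 and the share 82.2% instead of 50.2%. Each change is therefore one relative to most other genes. *Yap1*, the deleted gene, was at 28.2 to 33.2 TPM in the 6 WT livers, 1.67 to 3.72 TPM in YAP1 KO livers and 8.63 to 11.5 TPM in YKTH livers. *Wwtr1* was at 14.5 ± 1.85 TPM in YAP1 KO livers against 6.46 ± 0.324 in WT (C57BL/6), and at 12.4 ± 1.41 in YKTH livers against 8.11 ± 0.34 in WT (mixed) livers (SD, n = 3 each). On the scaled values its log2 fold change was 0.73 (limma adjusted p = 0.00186) in YAP1 KO mice. In YKTH mice it was 0.26 and did not pass (limma adjusted p = 0.0743), while without scaling it was 0.56 (limma adjusted p = 0.00779).

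*Hamp2* fell 48.6-fold in YAP1 KO and 44.0-fold in YKTH mice by mean TPM, while *Bmp6*, *Trf* and *Hfe* rose in both. *Hamp* itself and the BMP target *Id1* passed the test in YAP1 KO mice alone, and the difference between the models passed it for neither. All 10 genes passed the filter on low values. In YAP1 KO mice 4 of the 10 were higher and 2 lower, where 36.7% of all tested genes were called, 18.8% as higher and 17.9% as lower. In YKTH mice 3 were higher and 2 lower, where 38.2% of all genes were called, 19.2% as higher and 19% as lower. With so many genes called across the genome, counts of this kind say little about the 10 genes as a set, and the values of each gene are given instead. The counts given below for lists of genes are to be read beside the same shares, and the list sizes include genes too low to test. A gene could also enter a fit through the model mice alone. On the scaled values the 3 YAP1 KO mice did not overlap their littermates for 6 of the 10 genes, against 51.2% of all genes, and the 3 YKTH mice for 5 of the 10, against 52.1%. The median log2 fold change of the 10 genes was 0.29 in YAP1 KO and 0.24 in YKTH mice.

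**Figure D1:**
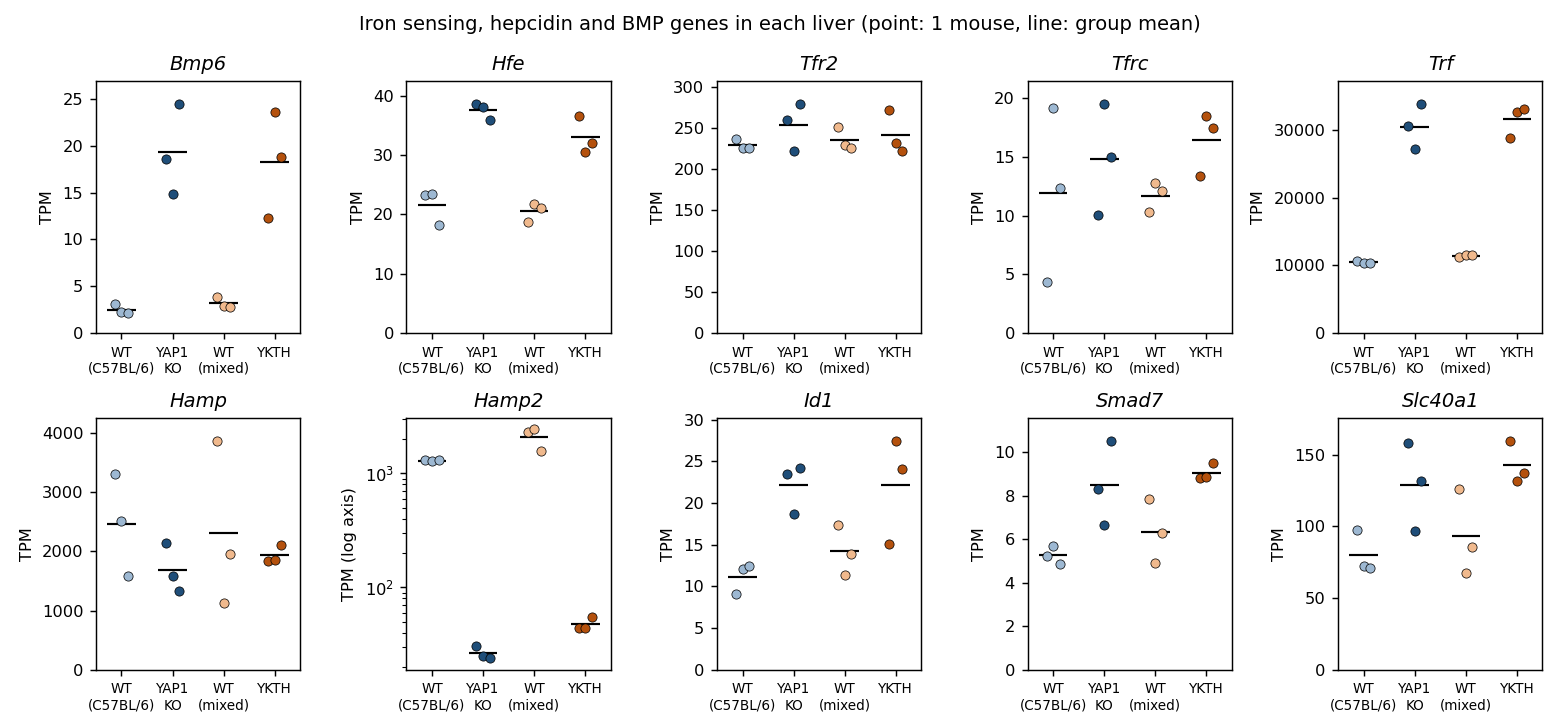
TPM of the 10 genes (y axis, from 0 except for *Hamp2*, which has a log axis) in the 4 groups (x axis); each point is 1 mouse and each line a group mean of 3 mice. *Hamp2* was at 1270 to 2438 TPM in the WT livers and 23.9 to 55.0 TPM in the knockout livers, while the *Hamp* points of models and littermates overlap.

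*Bmp6* (ENSMUSG00000039004, chromosome 13 from 38345107 to 38500302, plus strand) encodes the ligand through which iron raises hepcidin. WT (C57BL/6) livers had 3.15, 2.26 and 2.13 TPM of it and YAP1 KO livers 18.6, 14.8 and 24.5 TPM. WT (mixed) livers had 3.87, 2.90 and 2.80 TPM and YKTH livers 12.3, 23.7 and 18.8 TPM. All 6 knockout mice stood above all 6 WT mice, and the ratio of mean TPM was 7.68 in YAP1 KO and 5.73 in YKTH mice. In limma its log2 fold change was 2.21 (SE, the standard error, 0.21, limma adjusted p = 1.51e-04) in YAP1 KO and 1.89 (SE 0.23, limma adjusted p = 5.33e-04) in YKTH mice. Both values passed the test in all 11 alternative fits. In the fit with a minimum of 5 TPM, *Bmp6* entered only through the knockout mice, since every WT liver was below that level. That fit is therefore no separate check of *Bmp6*.

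Sinusoidal endothelial cells are known as the main source of BMP6 in the liver, so *Bmp6* was also set against a list of 8 endothelial marker genes. Their summed TPM was 101 to 112 in WT (C57BL/6) and 94.9 to 141 in YAP1 KO livers, and 132 to 141 in WT (mixed) and 116 to 154 in YKTH livers. The sums of models and littermates overlapped in both sets. *Bmp6* TPM as a percentage of that sum was 2.35 ± 0.403 in WT (C57BL/6) and 17.6 ± 5.65 in YAP1 KO livers (SD, n = 3; two-sided exact permutation test, p = 0.1, the smallest that 3 mice against 3 allow). It was 2.36 ± 0.34 in WT (mixed) and 13.6 ± 3.79 in YKTH livers (SD, n = 3; two-sided exact permutation test, p = 0.1). Of the 8 markers, none was higher and 3 were lower past the test in YAP1 KO mice, and 1 was higher and 3 lower in YKTH mice. Without scaling, 2 were higher and 2 lower in YAP1 KO and 1 was higher and 2 lower in YKTH mice. In bulk tissue fewer cells of a type and less RNA per cell cannot be told apart. *Bmp6* overlaps *Txndc5* by 224 bases on the other strand, and strand use in the counting is not given in the sources used here. *Txndc5*, named for this overlap, had log2 fold changes of -0.43 in YAP1 KO and -0.24 in YKTH mice on the scaled values. The part of *Txndc5* reads in the level of *Bmp6* was not tested.

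*Hfe* (ENSMUSG00000006611, chromosome 13 from 23702034 to 23710854, minus strand) encodes a protein that binds transferrin receptor 1 and is mutated in haemochromatosis. Its TPM was 23.2, 23.3 and 18.3 in WT (C57BL/6) against 38.6, 38.1 and 35.9 in YAP1 KO livers, and 18.7, 21.7 and 21.0 in WT (mixed) against 36.6, 30.4 and 31.9 in YKTH livers. Neither pair of groups overlapped. In limma its log2 fold change was 0.43 (SE 0.12, limma adjusted p = 0.0278) in YAP1 KO and 0.35 (SE 0.12, limma adjusted p = 0.0457) in YKTH mice. The value stayed positive in all 11 alternative fits, but 7 in YAP1 KO and 4 in YKTH mice kept an adjusted p under 0.05. In YAP1 KO mice the call was lost without LM192, LM193, LM189 or LM191 (adjusted p up to 0.0872), and in YKTH mice without any 1 of the 6 mice (adjusted p up to 0.128).

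*Tfr2* (ENSMUSG00000029716, chromosome 5 from 137569840 to 137587481, plus strand) encodes the iron-sensing transferrin receptor of hepatocytes, and its TPM hardly differed between groups. It was at 237, 226 and 226 TPM in WT (C57BL/6), at 260, 222 and 280 in YAP1 KO, at 252, 230 and 226 in WT (mixed) and at 272, 232 and 222 TPM in YKTH livers. The 4 groups overlapped, although the scaled values of the YKTH mice lay below those of their littermates. On the scaled values the log2 fold change was -0.22 (SE 0.11, limma adjusted p = 0.169) in YAP1 KO and -0.29 (SE 0.10, limma adjusted p = 0.0441) in YKTH mice. Its sign depended on the scaling, since without it the values were 0.14 and 0.033, and the YKTH call was lost without LM226, LM227, LM230, LM250 or LM251 (adjusted p up to 0.157).

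*Tfrc* (ENSMUSG00000022797, chromosome 16 from 32608920 to 32632794, plus strand), which encodes the transferrin receptor of iron uptake, passed in neither model. WT (C57BL/6) livers had 4.35, 19.1 and 12.3 TPM and YAP1 KO livers 10.1, 19.5 and 15.0 TPM, so 1 WT mouse stood far below the rest. WT (mixed) livers had 10.3, 12.7 and 12.1 TPM and YKTH livers 13.4, 18.5 and 17.5 TPM, which did not overlap before scaling but did after it. In limma its log2 fold change was 0.12 (95% confidence interval -0.92 to 1.16, limma adjusted p = 0.855) in YAP1 KO and 0.15 (95% confidence interval -0.25 to 0.55, limma adjusted p = 0.526) in YKTH mice. Without the mouse at 4.35 TPM the YAP1 KO value was -0.40. The globin gene *Hba-a1*, named after its values were seen, was at 248 TPM in that mouse and at 559 and 432 TPM in the other WT (C57BL/6) mice, and at 483, 487 and 562 TPM in YAP1 KO livers. It was at 204 to 232 TPM in WT (mixed) livers and at 191, 616 and 447 TPM in YKTH livers. In limma *Hba-a1* passed in neither model, at 0.020 (adjusted p = 0.959) in YAP1 KO and 0.44 (adjusted p = 0.410) in YKTH mice on the log2 scale. *Alas2*, the heme synthesis enzyme of red cell precursors, likewise named after its values, was higher in YAP1 KO mice at 0.49 (limma adjusted p = 0.0262). It did not pass in YKTH mice at 0.55 (limma adjusted p = 0.228). *Epor*, also named after its values, went the other way without passing, at -0.70 (limma adjusted p = 0.0672) and -0.37 (limma adjusted p = 0.342). The part of blood cells in the level of *Tfrc* was not tested.

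*Trf* (ENSMUSG00000032554, chromosome 9 from 103204001 to 103230444, minus strand) encodes transferrin, the iron carrier of plasma, and was by level the highest of the 10 genes in every group. Its TPM was 10673, 10358 and 10430 in WT (C57BL/6) against 30603, 27174 and 33906 in YAP1 KO livers, and 11235, 11575 and 11498 in WT (mixed) against 28907, 32782 and 33157 in YKTH livers. Neither model overlapped its littermates. By mean TPM it ranked 11 and 10 among all genes in the WT groups and 2 in each model. The log2 fold change was 1.18 (SE 0.15, limma adjusted p = 7.89e-04) in YAP1 KO and 1.14 (SE 0.18, limma adjusted p = 0.0018) in YKTH mice, and it kept the call in 11 and 10 of 11 alternatives, the exception being YKTH without a filter (adjusted p = 0.0596).

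*Trf* rose in livers where a list of hepatocyte markers did not. The summed TPM of 5 hepatocyte markers was 104372 ± 6081 in WT (C57BL/6) and 79669 ± 4467 in YAP1 KO livers, and 100325 ± 11701 in WT (mixed) and 81676 ± 9574 in YKTH livers (SD, n = 3 each). None of the 5 was higher past the test, and 3 in YAP1 KO and 2 in YKTH mice were lower. The sum mostly followed *Alb*, at up to 83138 TPM, while no other marker was above 11556 TPM. *Alb* was at -0.74 (limma adjusted p = 0.0151) in YAP1 KO and -0.62 (limma adjusted p = 0.0858) in YKTH mice as log2 fold changes. Lower *Alb* also raises the percentage given next. *Apoa1* and *Cps1* passed in neither model. *Trf* TPM as a percentage of that of *Alb*, which encodes albumin, was 13.4 ± 1.58 in WT (C57BL/6) and 50.9 ± 5.98 in YAP1 KO livers, and 15.3 ± 1.66 in WT (mixed) and 51.7 ± 3.75 in YKTH livers (SD, n = 3 each; exact permutation test, two-sided, p = 0.1 in both sets). *Trf* shares 26307 bases of its span with the gene model Gm20425 on the same strand, whose transcript was 98.05% identical to that of *Trf* over 83.6% of its length. No gene of the name Gm20425 had values in these data. How reads of the shared bases were assigned was not tested, so the level of *Trf* is uncertain to that extent.

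*Hamp* TPM was 3308, 2510 and 1580 in WT (C57BL/6) against 2146, 1578 and 1331 in YAP1 KO livers. It was 3872, 1120 and 1962 in WT (mixed) against 1837, 1862 and 2107 in YKTH livers. TPM values of models and littermates overlapped in both sets, and the WT (mixed) livers spanned both the highest and the lowest level of all 12. After scaling, the YAP1 KO livers lay below their littermates without overlap. The log2 fold change was -0.87 (SE 0.27, limma adjusted p = 0.0368) in YAP1 KO and -0.40 (95% confidence interval -1.24 to 0.43, limma adjusted p = 0.416) in YKTH mice. The fall in YAP1 KO mice was not robust, since it kept an adjusted p under 0.05 in 4 of 11 alternatives, with values from -1.16 without WT (C57BL/6) mouse LM193 to -0.51 (adjusted p = 0.158) without scaling. Leaving out LM75, LM192, LM189 or LM191 also ended the call, at -0.60, -0.85, -0.87 and -0.74. In YKTH mice the value was -0.82 (adjusted p = 0.0477) without WT (mixed) mouse LM227 and 0.017 (adjusted p = 0.964) without WT (mixed) mouse LM226.

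*Hamp2* behaved quite differently. Its TPM was 1304, 1270 and 1312 in WT (C57BL/6) against 30.7, 25.2 and 23.9 in YAP1 KO livers, and 2304, 2438 and 1562 in WT (mixed) against 44.1, 44.0 and 55.0 in YKTH livers. Every knockout liver was far below every WT liver, with a ratio of mean TPM, WT to model, of 48.6 in the C57BL/6 set and 44.0 in the mixed set. The log2 fold change was -5.91 (SE 0.10, limma adjusted p = 6.6e-08) in YAP1 KO and -5.73 (SE 0.18, limma adjusted p = 6.3e-07) in YKTH mice. By p-value *Hamp2* was number 1 of 11704 tested genes in YAP1 KO and number 14 of 11741 in YKTH mice. It passed in all 11 alternatives in both models, with log2 fold changes from -5.97 to -5.56 and from -5.90 to -5.41.

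Set against *Hamp* in the same liver, *Hamp2* TPM was 39.4% to 83.0% of *Hamp* TPM in WT (C57BL/6) livers and 1.43% to 1.80% in YAP1 KO livers. It was 59.5% to 218% in WT (mixed) and 2.36% to 2.61% in YKTH livers. The ratio was nearly fixed among the mice of each model and spread widely among their littermates. *Hamp* and *Hamp2* together were at 3761 ± 860 TPM in WT (C57BL/6) and 1712 ± 422 in YAP1 KO livers, and at 4419 ± 1521 in WT (mixed) and 1983 ± 156 in YKTH livers (SD, n = 3; exact permutation test, two-sided, p = 0.1 in both sets). The sums did not overlap in either set.

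The genes are close copies, and their counts carry an uncertainty for that reason. Their longest GENCODE M21 transcripts, of 410 and 437 bases, were 88.8% identical over 437 aligned columns. Of the 361 distinct stretches of 50 bases in *Hamp* transcripts, 60 also occurred in *Hamp2* transcripts, which is 16.6% of those of *Hamp* and 11.2% of those of *Hamp2*; none of 100 or 150 bases was shared. How reads that fit both genes were assigned is not given in the sources used here. The combined level above does not depend on that assignment between the copies, apart from the length scaling of TPM.

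**Figure D2:**
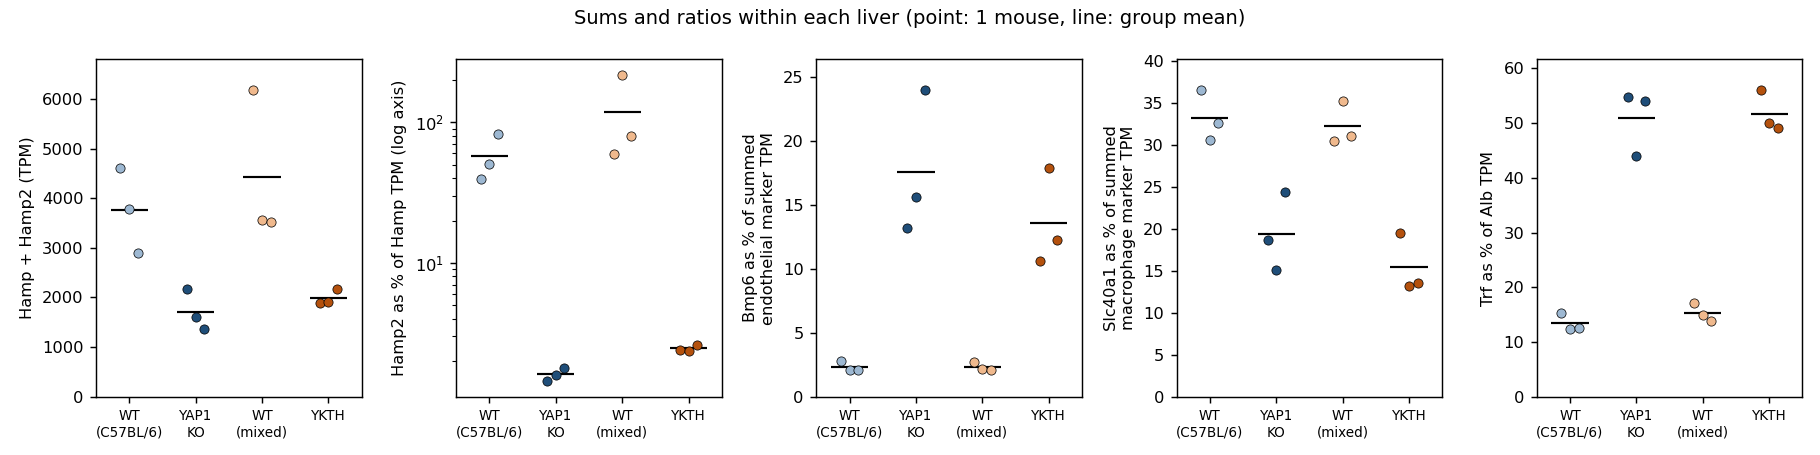
Sums and ratios within each liver (y axes: TPM for *Hamp* plus *Hamp2*, and percentages for the others, the one of *Hamp2* to *Hamp* on a log axis) in the 4 groups (x axis); each point is 1 mouse and each line a group mean of 3 mice. *Hamp2* was 1.43% to 2.61% of *Hamp* in the 6 knockout livers and at least 39.4% in the 6 WT livers, and *Bmp6* was at least 10.6% of the endothelial marker sum in the knockout and at most 2.81% in the WT livers.

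*Id1* (ENSMUSG00000042745, chromosome 2 from 152736251 to 152737410, plus strand) encodes an inhibitor of helix-loop-helix factors and is a direct target of BMP signalling. WT (C57BL/6) livers had 9.05, 12.1 and 12.4 TPM and YAP1 KO livers 23.5, 18.7 and 24.1 TPM, with no overlap. WT (mixed) livers had 17.4, 11.4 and 13.9 TPM and YKTH livers 15.1, 27.5 and 24.0 TPM, where 1 YKTH mouse lay among the WT mice. The log2 fold change was 0.59 (SE 0.14, limma adjusted p = 0.0127) in YAP1 KO and 0.28 (95% confidence interval -0.26 to 0.83, limma adjusted p = 0.380) in YKTH mice. The YAP1 KO call held in all 11 alternatives. In YKTH mice 1 of 11 passed, at 0.56 (adjusted p = 0.0257) without YKTH mouse LM225.

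*Smad7* (ENSMUSG00000025880) encodes the SMAD that blocks BMP and TGF-beta receptors in a feedback loop. Its TPM was 5.21, 5.69 and 4.86 in WT (C57BL/6) against 8.30, 6.63 and 10.5 in YAP1 KO livers, and 7.85, 4.91 and 6.28 in WT (mixed) against 8.79, 8.86 and 9.51 in YKTH livers. The TPM of the models lay above that of their littermates, but the scaled values overlapped. On the scaled values limma gave 0.27 (adjusted p = 0.234) in YAP1 KO and 0.19 (adjusted p = 0.353) in YKTH mice as log2 fold changes, and without scaling they were 0.58 (adjusted p = 0.0250) and 0.47 (adjusted p = 0.0460).

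*Slc40a1* (ENSMUSG00000025993, chromosome 1 from 45908068 to 45926523, minus strand) encodes ferroportin, the iron exporter on which hepcidin acts, and in liver it is known to be high in Kupffer cells. WT (C57BL/6) livers had 97.6, 72.1 and 70.7 TPM and YAP1 KO livers 158, 96.4 and 132 TPM. WT (mixed) livers had 126, 67.8 and 85.4 TPM and YKTH livers 160, 132 and 137 TPM. On the scaled values the groups overlapped in both sets, with log2 fold changes of 0.31 (limma adjusted p = 0.237) in YAP1 KO and 0.34 (limma adjusted p = 0.182) in YKTH mice. Without scaling they were 0.66 (adjusted p = 0.0244) and 0.66 (adjusted p = 0.0305), and without WT (mixed) mouse LM226 the YKTH value was 0.53 (adjusted p = 0.0266).

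The summed TPM of Kupffer cell and macrophage markers rose more than that of *Slc40a1* did. Of 8 such markers 7 were higher past the test in each model and none was lower past it, where 18.8% and 19.2% of all tested genes were higher. The other marker, *Timd4*, was at -0.32 (limma adjusted p = 0.414) in YAP1 KO and 0.40 (limma adjusted p = 0.253) in YKTH mice as log2 fold changes. The summed TPM of all 8 was 217 to 267 in WT (C57BL/6), 540 to 845 in YAP1 KO, 192 to 413 in WT (mixed) and 820 to 1015 in YKTH livers. *Slc40a1* TPM as a percentage of that sum was 33.2 ± 3.01 in WT (C57BL/6) and 19.4 ± 4.66 in YAP1 KO livers, and 32.3 ± 2.60 in WT (mixed) and 15.4 ± 3.53 in YKTH livers (SD, n = 3; exact permutation test, two-sided, p = 0.1 in both sets). The part of these cells in the level of *Slc40a1* was not tested. Of the other lists, 3 of 6 stellate cell and fibroblast markers were higher in each model and 1 was lower in YAP1 KO mice (without scaling 5 higher and 0 lower in YAP1 KO and 3 and 0 in YKTH mice), with sums of 126 to 145 and 110 to 133 TPM in the WT groups and 271 to 338 and 233 to 324 TPM in YAP1 KO and YKTH livers. Of 5 biliary markers 2 were higher in each model and 1 was lower in YKTH mice, the higher ones being *Spp1* and *Sox9*. Their sums of 28.8 to 54.7 and 43.0 to 59.9 TPM in the WT groups and 323 to 742 and 98.7 to 218 TPM in YAP1 KO and YKTH livers were mostly *Spp1*, at a mean of 450 of 466 TPM in YAP1 KO and 154 of 166 TPM in YKTH livers. The duct keratin *Krt19* was at 0.20 (limma adjusted p = 0.736) and -1.001 (limma adjusted p = 0.139) and *Epcam* at -0.35 (limma adjusted p = 0.441) and -1.48 (limma adjusted p = 0.00118) as log2 fold changes, and *Krt7* was under 1 TPM in all 12 livers.

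**Figure D3:**
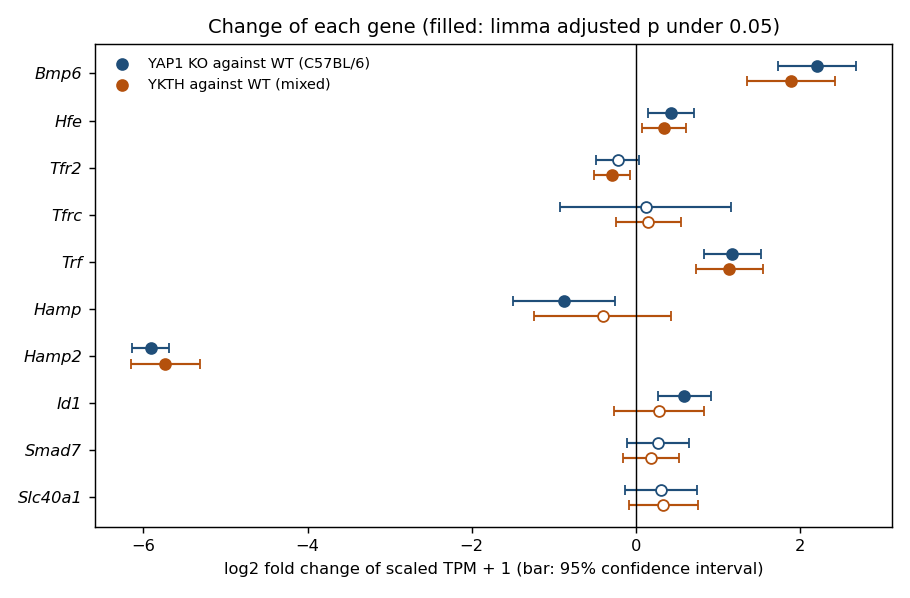
Log2 fold change of scaled TPM + 1 (x axis) of each gene (y axis) in YAP1 KO against WT (C57BL/6) and in YKTH against WT (mixed) mice, with 95% confidence intervals; filled points have a limma adjusted p under 0.05. *Hamp2* stands apart at -5.91 and -5.73, *Bmp6* is highest at 2.21 and 1.89, and the sign of the small *Tfr2* values turns without scaling.

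*Trf*, *Hamp*, *Tfr2*, *Slc40a1* and *Hfe* kept their order of levels in all 4 groups, while *Hamp2* and *Bmp6* changed place. By mean TPM in the WT (C57BL/6) livers the order was *Trf* at 10487, *Hamp* at 2466, *Hamp2* at 1295, *Tfr2* at 229, *Slc40a1* at 80.1, *Hfe* at 21.6, *Tfrc* at 11.9, *Id1* at 11.2, *Smad7* at 5.25 and *Bmp6* at 2.51. *Hfe* and *Tfrc* overlapped there, as did *Tfrc* and *Id1*, while the other neighbours did not. In the WT (mixed) livers *Hamp* at 2318 and *Hamp2* at 2101 overlapped, and so did *Id1* at 14.2 and *Tfrc* at 11.7. In the YAP1 KO livers *Hamp2* came after *Slc40a1* and *Hfe*, and *Hamp2* at 26.6, *Id1* at 22.1, *Bmp6* at 19.3, *Tfrc* at 14.9 and *Smad7* at 8.49 each overlapped the next. In the YKTH livers *Hamp2* at 47.7 lay between *Slc40a1* at 143 and *Hfe* at 33.0, and *Id1* at 22.2, *Bmp6* at 18.3 and *Tfrc* at 16.4 each overlapped the next.

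Whether the 2 models differed was tested as a difference of their changes. None of the 10 genes passed (limma adjusted p = 0.998 for each), where 7 of 12159 genes, or 0.0576%, were called and 555 had an unadjusted p under 0.05. *Yap1* was among the 7, at -1.59 (limma adjusted p = 0.0371). The change in YAP1 KO minus that in YKTH mice was -0.48 for *Hamp* (95% confidence interval -1.59 to 0.63), 0.30 for *Id1* (-0.36 to 0.96), 0.32 for *Bmp6* (-0.42 to 1.06), -0.19 for *Hamp2* (-0.66 to 0.28) and 0.027 for *Trf* (-0.45 to 0.51) on the log2 scale. The intervals of *Hamp*, *Bmp6* and *Id1* are wide, and a difference between the models within these bounds could not be told from none with 3 mice a group.

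The WT groups differ in background. None of the 10 genes passed between them, where 24 of 11126 genes, or 0.216%, were called and 649 had an unadjusted p under 0.05. *Hamp2* came nearest, since all 3 WT (mixed) livers were above all 3 WT (C57BL/6) livers, at 1.62 times the mean TPM (exact permutation test, two-sided, p = 0.1) and a log2 difference of 0.61 (95% confidence interval 0.23 to 0.99, limma adjusted p = 0.526).

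Across mice, no correlation of *Hamp* with another gene of its pathway passed the test. Over the 12 mice, with group means removed, Pearson's r of *Hamp* was 0.20 with *Id1* (permutation p = 0.518), 0.47 with *Smad7* (p = 0.238), 0.28 with *Bmp6* (p = 0.222), -0.031 with *Tfr2* (p = 0.886) and -0.0080 with *Hamp2* (p = 0.995), from 1296 arrangements within groups in an exact permutation test. Spearman's rho was 0.20, 0.43, 0.20, -0.15 and 0.29, with exact permutation p = 0.59, 0.267, 0.509, 0.643 and 0.475. Over these 5 relations the adjusted permutation p was 0.594 at the lowest for r and 0.643 for rho. Without the 2 mice farthest from the median of *Hamp*, WT (mixed) LM227 and LM226, r was -0.20, -0.011, 0.24, -0.12 and 0.34. Within the C57BL/6 set of 6 mice r was -0.79 for *Id1*, -0.11 for *Smad7*, 0.20 for *Bmp6*, -0.030 for *Tfr2* and 0.48 for *Hamp2*. Within the mixed set of 6 it was 0.55, 0.96, 0.34, -0.043 and -0.12, so *Id1*, *Smad7* and *Hamp2* changed sign between the sets. The genes whose log2 levels were most like those of *Hamp* over the 12 libraries, out of 12159, were *C330021F23Rik* (r = 0.91), *Dock1* (r = 0.89) and *Clec2h* (r = 0.87). *C330021F23Rik* was at 4.45 ± 3.53 TPM in WT (C57BL/6) and 1.12 ± 0.629 in YAP1 KO livers, and at 3.55 ± 2.39 in WT (mixed) and 1.32 ± 0.112 in YKTH livers (SD, n = 3 each). *Dock1* lay between 4.46 and 6.58 TPM and *Clec2h* reached at most 4.34 TPM. The points share their groups and libraries, so these values are descriptions.

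The other genes of these pathways were taken from 9 lists of 76 genes. In YAP1 KO mice 67 were tested, of which 21 were higher, 9 lower and 37 did not pass, with a median log2 fold change of -0.01 beside -0.04 over all genes. Among all tested genes 18.8% were higher and 17.9% lower. In YKTH mice 66 were tested, of which 19 were higher, 12 lower and 35 did not pass, with a median of -0.03 beside -0.04. There 19.2% of all tested genes were higher and 19% lower. Passing in both models, 19 were higher, 6 were lower and none went opposite ways. The share of all genes passing in both models was not taken. Only 7 of 12159 genes differed between the models, so the lack of opposite changes says little about these lists. Without scaling the counts were 29 higher and 3 lower in YAP1 KO and 26 and 3 in YKTH mice, so the lists' balance of higher and lower depended on it. *Erfe*, *Nog*, *Grem1*, *Chrdl1* and *Il6* were among the genes too low to test in either model.

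Of 7 further BMP and activin ligands, 1 was higher and 2 lower in YAP1 KO and 1 was higher and 1 lower in YKTH mice. *Inhbb*, which encodes the activin B subunit, rose from 0.732 ± 0.0536 to 4.32 ± 1.71 TPM in YAP1 KO and from 1.23 ± 0.665 to 4.82 ± 2.16 TPM in YKTH livers (SD, n = 3 each), with log2 fold changes of 1.34 and 1.16. It was at most 0.778 TPM in the WT (C57BL/6) livers, so it entered the YAP1 KO fit only through the YAP1 KO mice. *Bmp2*, the other endothelial BMP that acts on hepcidin, went the opposite way to *Bmp6*, at -0.83 (SE 0.18, limma adjusted p = 0.00852) in YAP1 KO and -0.59 (SE 0.12, limma adjusted p = 0.00605) in YKTH mice. Without scaling it was at -0.51 and -0.29 and no longer passed. Among 12 antagonists, 3 were higher and 1 lower in YAP1 KO and 2 were higher and 1 lower in YKTH mice. *Fst*, whose product follistatin traps activins, rose by 1.57 and 1.48 on the log2 scale, and the related *Fstl1* by 1.56 and 1.48. *Tmprss6*, which encodes the protease that cleaves hemojuvelin and is named here after its values were seen, was at -0.26 (limma adjusted p = 0.116) and -0.31 (limma adjusted p = 0.0361), and its YKTH value was 0.015 without scaling.

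Of 9 BMP receptors and co-receptors, 2 were higher and 2 lower in each model. *Hjv*, which encodes the hepatocyte co-receptor hemojuvelin, rose from 58.9 ± 13.8 to 131 ± 13.3 TPM in YAP1 KO and from 59.5 ± 0.611 to 127 ± 3.34 TPM in YKTH livers (SD, n = 3 each), with log2 fold changes of 0.80 and 0.76. *Acvrl1*, the endothelial type I receptor ALK1, rose by 0.71 and 0.73. *Acvr2b* fell by 1.41 and 0.72 and *Acvr2a* by 0.59 and 0.53, both of which encode type II receptors; without scaling *Acvr2a* did not pass. Of 9 SMADs and BMP targets 2 were higher and none lower in each model. These were *Id3*, a close relative of *Id1*, with log2 fold changes of 1.08 (SE 0.14, limma adjusted p = 7.36e-04) and 0.75 (SE 0.24, limma adjusted p = 0.0385), and *Atoh8*, a transcription factor that follows BMP signals in hepatocytes, with 0.90 (SE 0.22, limma adjusted p = 0.0139) and 0.84 (SE 0.13, limma adjusted p = 0.00159). The SMAD genes themselves did not pass in either model. Without scaling 5 of the list were higher in each.

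The interleukin 6 arm raises hepcidin through STAT3, and 2 of its 7 genes were higher and 1 lower in each model. *Socs3*, the feedback inhibitor of this arm, rose from 5.37 ± 1.44 to 47.0 ± 7.36 TPM in YAP1 KO and from 4.91 ± 1.75 to 32.8 ± 17.9 TPM in YKTH livers (SD, n = 3 each), with log2 fold changes of 2.60 and 2.15. *Stat3* rose by 0.58 and 0.60. *Il6ra*, which encodes the receptor, fell by 0.72 and 0.80, and it did not pass without scaling.

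Of 10 genes of iron uptake and reduction, 8 were tested, and 5 were higher and none lower in each model. Of all tested genes 18.8% were higher in YAP1 KO and 19.2% in YKTH mice. *Lcn2*, whose product lipocalin 2 binds iron-carrying siderophores, rose from 24.5 ± 15.6 to 1330 ± 428 TPM in YAP1 KO and from 17.4 ± 4.68 to 1670 ± 511 TPM in YKTH livers (SD, n = 3 each). The ferrireductase genes *Steap4* and *Steap2* rose by 1.35 and 1.43 in YAP1 KO and by 1.61 and 1.22 in YKTH mice. Of 7 genes of storage and export oxidation 2 were higher and none lower in YAP1 KO, and 1 was higher and 1 lower in YKTH mice. *Cp*, which encodes the plasma ferroxidase ceruloplasmin, rose from 255 ± 6.56 to 992 ± 102 TPM and from 271 ± 21.1 to 980 ± 45.8 TPM (SD, n = 3 each).

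The ferritin light chain gene *Ftl1*, named here after its values were seen, could not be read in the mixed set. It was at 7904 to 8157 TPM in WT (C57BL/6) and 11465 to 13602 TPM in YAP1 KO livers, but at 3865 to 4297 TPM in WT (mixed) livers and at 10.1, 5616 and 9.66 TPM in the YKTH livers. The values of its processed copy *Ftl1-ps1* ran the other way, from 12.01 to 34.0 TPM in the C57BL/6 set to 1577 to 1737 TPM in WT (mixed) and 4397, 2519 and 3893 TPM in YKTH livers. The same mice were low for the one and high for the other. How reads were shared between the copies was not tested, and no change is read from *Ftl1*.

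Among 5 genes of cellular iron sensing none was higher, 1 was lower in YAP1 KO and 4 were lower in YKTH mice. Of all tested genes 17.9% were lower in YAP1 KO and 19% in YKTH mice. *Ireb2*, which encodes iron regulatory protein 2, fell by 0.69 and 0.80 on the log2 scale, and without scaling the list held 0 lower in YAP1 KO and 1 in YKTH mice. Of 10 genes of heme and haemoglobin handling, 4 were higher and 2 lower in each model. *Hp* and *Hpx*, which encode the plasma binders of haemoglobin and heme, rose by 1.91 and 1.35 in YAP1 KO and by 1.99 and 1.58 in YKTH mice. *Hmox1*, which encodes the heme-degrading enzyme, rose from 20.3 ± 1.78 to 69.9 ± 5.95 TPM and from 23.3 ± 5.05 to 81.7 ± 2.58 TPM (SD, n = 3 each). *Cd163*, the macrophage receptor for haptoglobin-bound haemoglobin, fell by 1.58 and 0.92, in livers where 7 of 8 macrophage markers were higher; its YKTH value did not pass without scaling.

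**Figure D4:**
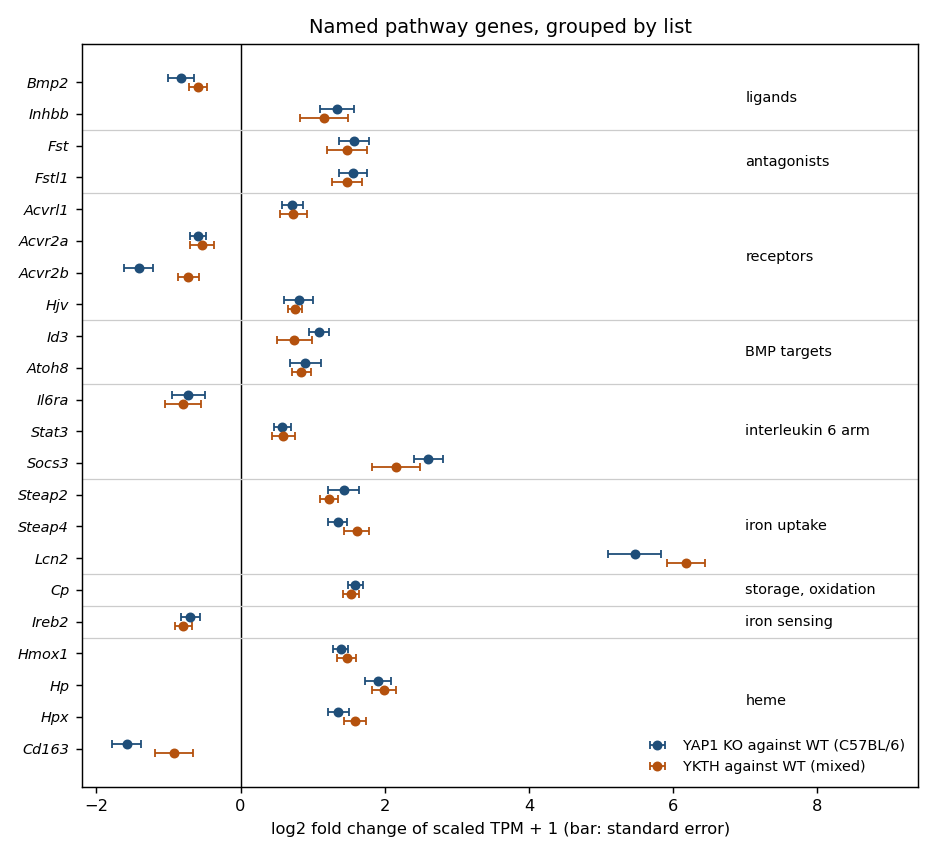
Log2 fold change of scaled TPM + 1 (x axis, with SE bars) of the genes named from the 9 lists (y axis), in YAP1 KO against WT (C57BL/6) and YKTH against WT (mixed) mice; all shown passed the test in the same direction in both. *Lcn2* is highest at 5.46 and 6.18, *Bmp2* lies below 0 while *Inhbb* lies above it, and the BMP targets *Id3* and *Atoh8* lie between 0.75 and 1.08.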

How the data were processed

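RNA-seq of whole liver from 12 mice was analysed. The authors aligned reads to GRCm38 in CLC Genomics Workbench and deposited a TPM value per gene and mouse. The authors' own comparisons, made with edgeR within CLC, hold fold changes and p-values per gene and were not used. Every TPM column had a sample (0 without one), and no libraries were identical. Counts were not used here, so the reads behind each value are unknown, and the spread between mice within groups is the only error. The limma p-values set a change against that spread, with each gene's variance drawn towards a trend over all tested genes.

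TPM values were scaled by an unweighted trimmed mean of log ratios (30% of log ratios and 5% of levels trimmed). A gene entered a fit if 3 or more of its libraries had 1 TPM or more. The log2(scaled TPM + 1) values went into limma 3.58.1 under R 4.3.3 (lmFit, eBayes with trend, two-sided, Benjamini-Hochberg, threshold 0.05), each model on its own 6 libraries and the difference between models on all 12. The steps were also run on simulated data with 50 genes changed at each of the log2 fold changes -2, -1, 1 and 2, and all were recovered. Far fewer genes were changed there than were called in the livers, and rises and falls were equal in number. Those data therefore do not test the scaling under a broad shift. Single values were tested by exact two-sided permutation (scipy 1.17.1). Sequences came from RefSeq (GRCm38.p6) and GENCODE M21, in which all 10 genes have the coordinates of the table, and copies were sought with blastn 2.17.0.

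The genes and lists were chosen with earlier results of these data known. By rule the text names the 10 genes, *Yap1* and *Wwtr1*, from each list up to 3 genes with the largest rises and 3 with the largest falls past the test in both models, and the 3 genes most like *Hamp*. Alternatives were a pseudocount of 0.1, no filter, at least 5 TPM, unscaled TPM, all 12 libraries in 1 fit, each mouse left out in turn and, added after seeing the data, a block of mice with near label numbers in YAP1 KO against WT (C57BL/6). The result of 1 list of marker genes is not reported here.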

Additional observations from a re-analysis of the deposited data

How the results depend on the processing

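The reads behind each TPM value are unknown, and 3 mice a group limit every test. No paired analysis was possible because the labels name no littermate pairs and the groups share no replicate numbers. With mice of near label numbers as a block (LM74 and LM75 against LM189 to LM193), chosen after seeing the data, the same 6 genes passed in YAP1 KO mice, *Hamp* with an adjusted p of 0.00993, and 4609 genes were called against 4295. In the mixed set LM250 and LM251 are both YKTH, so such a block would hold mice of 1 group and was not fitted. *Hamp2* and *Bmp6* passed in both models, and *Trf* and *Id1* in YAP1 KO mice, under all 11 alternatives. The minimum of 5 TPM was met by *Bmp6* in knockout mice only, so that alternative is no separate check of it. Apart from this block, of 489 values of single genes under an alternative, 428 kept direction and side of the threshold, 24 no longer passed, 8 newly passed and 29 changed sign; of the last, 1 had passed in the reported fit (*Tfr2* in YKTH mice), 0 passed in the alternative, and 25 came from leaving out 1 mouse. The causes were not tested. In YKTH mice 3 of the 10 genes passed without a filter and 3 to 5 with 1 mouse left out, against 5. Over all genes, 2833 (without YKTH mouse LM251) to 4069 were called in YKTH mice with 1 mouse left out, against 4486. For the difference between the models, 3 were called with a pseudocount of 0.1, 2 without a filter and 3 (without LM193) to 20 (without LM74) with 1 mouse left out, against 7. Between the WT groups 15 were called without a filter and 9 (without LM227) to 28 (without LM75) with 1 mouse left out, against 24. A minimum of 5 TPM left no value for *Bmp6* between the WT groups. Without scaling, *Tfr2* turned to 0.14 in YAP1 KO mice, 0.033 in YKTH mice and 0.038 between the WT groups, and *Slc40a1* to 0.0079 for the difference between the models. With 1 mouse left out, *Tfrc* in YAP1 KO mice ran from -0.40 to 0.52 and *Hamp* in YKTH mice from -0.82 to 0.017. For the difference between the models the ranges were -0.041 to 0.17 for *Hfe*, -0.037 to 0.12 for *Tfr2*, -0.56 to 0.37 for *Tfrc*, -0.076 to 0.090 for *Trf*, -0.24 to 0.15 for *Slc40a1* and -0.095 to 0.22 for *Smad7*. Between the WT groups they were -0.69 to 0.15 for *Hamp*, -0.053 to 0.019 for *Tfr2*, -0.41 to 0.51 for *Tfrc* and -0.074 to 0.31 for *Slc40a1*.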
